A study of Mus musculus with 12 samples.

Results

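The 10 genes described here encode the D-type cyclins (Ccnd1, Ccnd2 and Ccnd3), their partner kinase Cdk4, and inhibitors of cyclin-dependent kinases of the Cip/Kip family (Cdkn1b and Cdkn1c) and the Ink4 family (Cdkn2a, Cdkn2b, Cdkn2c and Cdkn2d). They were taken by symbol. Each probe set paired with a single gene symbol that was 1 of these 10 was kept, which gave 23 of the 45037 probe sets and 10 of the 18193 genes on the array. RNA was measured in mouse leukaemic stem cells on 12 Affymetrix arrays in 4 groups of 3. Donor stem and progenitor cells came from mice with a gene trap in both copies of Msi2 (Msi2 Gt/Gt), an RNA-binding protein gene, or from wild-type mice, all given the strain name B6;CB-Msi2Gt(pU-21T)2Imeg. They were infected with an oncogene and transplanted, and no treatment was given. The groups were blast crisis chronic myelogenous leukaemia (bcCML) driven by BCR-ABL with NUP98-HOXA9, from Msi2 mutant donors and from wild-type donors, and de novo acute myelogenous leukaemia (AML) driven by MLL-AF9, from Msi2 mutant donors and from wild-type donors. The bcCML cells were sorted as lineage-negative and the AML cells as lineage-negative, Sca1-negative and Kit-positive, so gate and leukaemia cannot be told apart in any difference between them.

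D cyclins bind Cdk4 or its relative Cdk6, and the active kinases phosphorylate the retinoblastoma protein and release E2F factors, which switch on genes of DNA replication. Ink4 proteins bind Cdk4 and Cdk6 directly and block them, whereas Cip/Kip proteins bind cyclin and kinase complexes more broadly. In blood formation these genes are known for setting the balance between quiescence and division of stem cells, and D cyclins stand in for each other in many lineages. Cdkn2a is unusual in making 2 unrelated proteins from separate start sites, an Ink4 inhibitor and Arf, a protein that stabilises p53.

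Median intensities lay between 13.1 and 13.8 units on all arrays. The first principal component held 76.2% of the variance and parted the leukaemias, and on the second AML mutant array 1 stood apart at -58.2, below the next lowest array, bcCML wild-type array 1, at -31.9. Msi2 itself averaged 605 ± 117 units in mutant and 3827 ± 1085 in wild-type bcCML, and 69.6 ± 17.0 in mutant and 312 ± 125 in wild-type AML (SD, n = 3 each), so Msi2 signal remained in the mutant samples, and its source was not tested. Kit was above 16 units on every array of both leukaemias, and Ly6a, the gene of Sca1, was not analysed here. Of the lineage genes, Cd3e stayed below 10 units on every array, while Itgam was at most at 4.52 units in bcCML and between 35.0 and 86.6 in AML.

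All 10 genes were tested among 10817 genes, each through its brightest probe set. A probe set was kept where its intensity was above the filter level of 16 units on at least 3 arrays. Of the 23 probe sets 22 passed. Cdkn2b passed only through the bcCML arrays and Cdkn1c only through the AML mutant arrays, so a difference of either gene from the dim groups was in part fixed by the filter. Between the leukaemias, 3 genes were higher and 4 lower in wild-type bcCML than in wild-type AML (limma, adjusted p under 0.05), beside 17.7% of all tested genes higher and 19.3% lower. Among Msi2 mutants 4 were higher and 6 lower in bcCML, beside 23.2% and 21.9% of all tested genes. The share of all tested genes whose bcCML and AML arrays did not overlap was not counted. Where no overlap between the leukaemias is given below, it describes the gene only. With loss of Msi2, limma called none of the 10 in bcCML, in AML, in the mean of both or in the difference between the leukaemias. The background of called genes was 0.139%, 1.52%, 0.471% and 0% in that order. At an unadjusted p under 0.05 there were 2 genes in bcCML, 3 in AML, 2 in the mean of both and 3 in the difference between them, where 8.32%, 14.2%, 13.7% and 9.37% of all genes lay. The bcCML and AML comparisons with and without Msi2 share arrays, so their values are set side by side and not counted together.

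**Figure D1:**
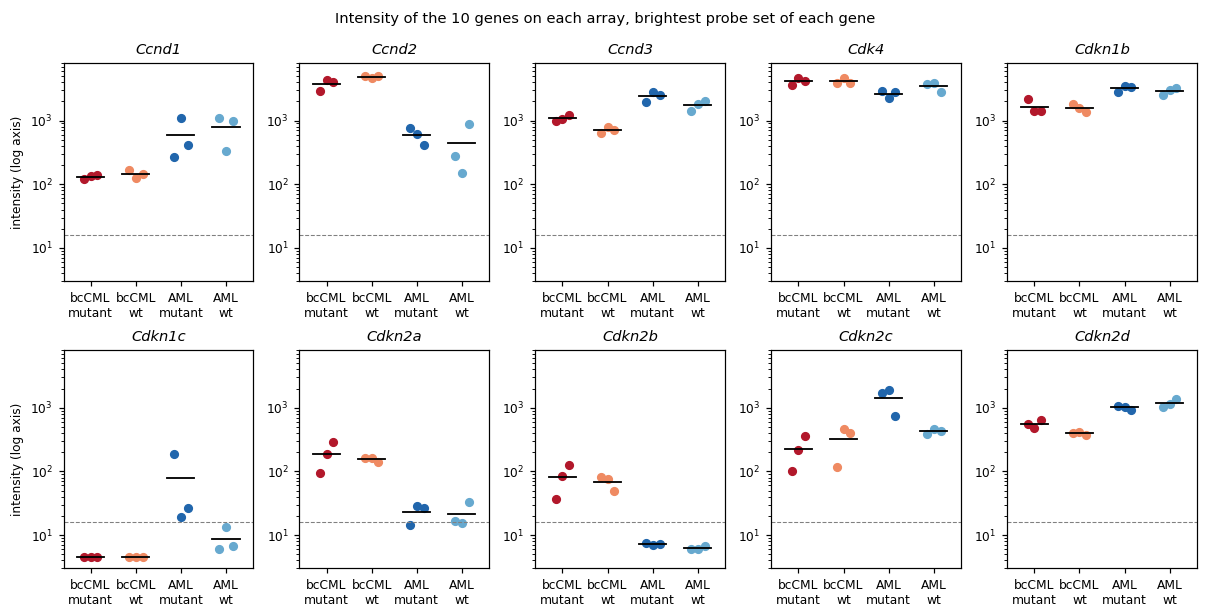
Intensity (log axis) of each of the 10 genes on every array, by group, with black bars for the arithmetic group mean and a dashed line at the filter level of 16 units. Ccnd2, Cdkn2a and Cdkn2b sat higher on all 6 bcCML arrays than on any AML array, Ccnd1, Ccnd3, Cdkn1b and Cdkn2d lower, and Cdkn2c was highest on the 3 AML mutant arrays. The share of all tested genes that part the leukaemias in this way was not counted.

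The D cyclins divided between the leukaemias. Ccnd2, which in haematopoietic cells responds to cytokine signalling, measured 2950, 4332 and 4108 units on the bcCML mutant arrays and 5011, 4684 and 4934 on the bcCML wild-type arrays. It measured 757, 608 and 421 units on the AML mutant arrays and 274, 149.6 and 888 on the AML wild-type arrays. Every bcCML array lay above every AML array. The log2 difference was 2.69 ± 0.52 between mutants (SE; limma adjusted p = 0.00194) and 3.88 ± 0.52 between wild-types (adjusted p = 0.000258), which are 6.47-fold and 14.7-fold. Wild-type AML array 3, with 888 units, was the highest of the AML arrays, and without it the wild-type difference was 4.59. In these bulk samples fewer cells of a type and less RNA per cell cannot be told apart. All 7 probe sets of Ccnd2 were higher in bcCML, with log2 differences between 2.33 and 4.37 among mutants and between 3.08 and 4.72 among wild-types, and each passed a fit over all probe sets. That fit called 20 of the 22 probe sets of the 10 genes among mutants and 16 among wild-types, beside 42.5% and 33.5% of all probe sets.

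Ccnd1, the D cyclin best known from epithelial and lymphoid tumours, ran the other way. It measured 119.6, 136 and 140.0 units on the bcCML mutant arrays and 166, 126 and 144 on the bcCML wild-type arrays, against 271, 1091 and 421 on the AML mutant arrays and 1097, 333 and 969 on the AML wild-type arrays. No bcCML array reached the lowest AML array. The log2 difference was -1.92 ± 0.52 between mutants (SE; adjusted p = 0.0127) and -2.29 ± 0.52 between wild-types (adjusted p = 0.00638). With the replicate number as a block the mutant difference no longer passed (adjusted p = 0.0555). Within AML the arrays of the 2 genotypes overlapped, each with both low and high members. A dimmer probe set of Ccnd1 showed the same high arrays, with 43.3 units on AML mutant array 2, and 53.0 and 47.2 units on AML wild-type arrays 1 and 3, where the other AML arrays lay between 11.8 and 18.2. That probe set was below the filter level on every bcCML array. It passed the filter only through AML arrays, so its difference between leukaemias was in part fixed by the filter. That difference passed among wild-types (adjusted p = 0.0136) and not among mutants (adjusted p = 0.0791).

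Ccnd3, the D cyclin needed for expansion of several lymphoid and myeloid lineages, was lower in bcCML by its brightest probe set. It measured 977, 1069 and 1246 units on the bcCML mutant arrays and 631, 806 and 710.3 on the bcCML wild-type arrays. On the AML mutant arrays it measured 1987, 2840.4 and 2500 units and on the AML wild-type arrays 1422, 1847 and 2022. The groups of the 2 leukaemias did not overlap, with log2 differences of -1.15 ± 0.19 between mutants (SE; adjusted p = 0.000757) and -1.29 ± 0.19 between wild-types (adjusted p = 0.000465). The probe sets of Ccnd3 disagreed. A dim probe set was below the filter level on all bcCML arrays and at least 1.93-fold lower than in AML among mutants and at least 1.22-fold lower among wild-types (adjusted p = 0.00175 and 0.00181). This dim probe set passed the filter only through AML arrays, so its difference was in part fixed by the filter. The other, of intermediate brightness, averaged 424 ± 195 units in mutant and 560 ± 186 in wild-type bcCML, against 298 ± 172 and 214 ± 134 in mutant and wild-type AML (SD, n = 3 each). Its log2 differences between leukaemias were 0.56 ± 0.56 between mutants (adjusted p = 0.452) and 1.55 ± 0.56 between wild-types (adjusted p = 0.0548), neither past the threshold. With the mean over the 3 probe sets the Ccnd3 differences were -0.68 and -0.42, and neither passed (adjusted p = 0.0606 and 0.249).

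**Figure D2:**
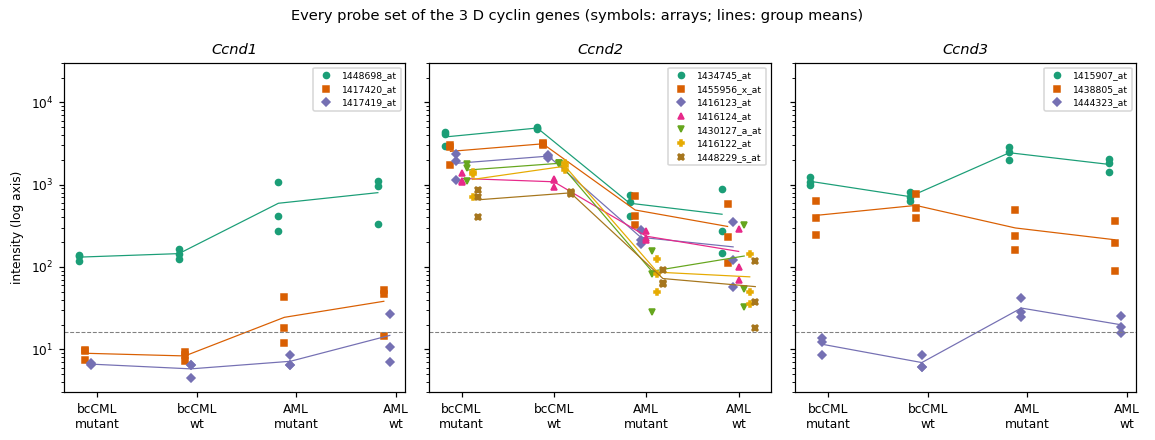
Intensity (log axis) of every probe set of Ccnd1, Ccnd2 and Ccnd3 by group, with a symbol for each array, a line through the group means and a dashed line at 16 units. All 7 Ccnd2 probe sets have higher means in both bcCML groups than in either AML group, while 1 of the 3 Ccnd3 probe sets has higher means in bcCML than in AML and the other 2 lower ones.

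Ccnd3 was also the D cyclin whose estimates were positive with Msi2 loss in both leukaemias. In bcCML all 3 mutant arrays lay above all 3 wild-type arrays, with means of 1097 ± 136 units in mutants and 716 ± 87.5 in wild-types (SD, n = 3 each). The log2 difference of 0.62 ± 0.19 (SE) did not pass over all genes (unadjusted p = 0.00859, adjusted p = 0.422). In AML the means were 2442 ± 429 units in mutants and 1764 ± 308 in wild-types, with overlapping arrays, and the log2 difference was 0.47 ± 0.19 (adjusted p = 0.292). The mean of both was 0.54 ± 0.13 (adjusted p = 0.112), and adjusted p values over the alternatives and with 1 array left out ran between 0.0585 and 0.364. The intermediate probe set had an estimate of -0.46 in bcCML and 0.54 in AML. Neither Ccnd1 nor Ccnd2 passed the threshold with Msi2 loss. Ccnd1 differed by -0.14 ± 0.52 in bcCML and -0.50 ± 0.52 in AML (adjusted p = 0.990 and 0.762). For Ccnd2 the 3 bcCML mutant arrays lay below the 3 wild-type arrays by the brightest probe set, with a log2 difference of -0.38 ± 0.52 (adjusted p = 0.913), and 5 of its other 6 probe sets also had negative estimates there. In AML its difference was 0.80 ± 0.52 (adjusted p = 0.563) and rested on single wild-type arrays, since it was 0.23 without wild-type array 2 (adjusted p = 0.952) and 1.52 without wild-type array 3 (adjusted p = 0.0536).

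Cdk4, the kinase partner of the D cyclins, had high and even signal. Its brightest probe set, an x type that can share probes with other genes, measured 3584, 4684 and 4231 units on the bcCML mutant arrays and 3827, 4746 and 3898 on the bcCML wild-type arrays. On the AML mutant arrays it measured 2926, 2280.4 and 2764 units and on the AML wild-type arrays 3741, 3858 and 2765. The mutant bcCML arrays lay above the mutant AML arrays, while the wild-type groups overlapped. The log2 difference was 0.65 ± 0.18 between mutants (SE; adjusted p = 0.0145) and 0.28 ± 0.18 between wild-types (adjusted p = 0.263), and the test of the difference between these did not pass (0.37 ± 0.26, adjusted p = 0.686). The mutant call ended without AML mutant array 2 (adjusted p = 0.0546) or bcCML mutant array 2 (adjusted p = 0.0575). The other 2 probe sets of Cdk4 gave closely like values, between 0.65 and 0.68 over the 3 among mutants. With Msi2 loss Cdk4 differed by 0.00 ± 0.18 in bcCML (adjusted p = 1) and -0.37 ± 0.18 in AML (adjusted p = 0.400).

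Cdkn1b encodes p27, a Cip/Kip inhibitor that is abundant in resting cells and is controlled largely at the protein level. It measured 2162, 1414 and 1395 units on the bcCML mutant arrays and 1851, 1557 and 1369 on the bcCML wild-type arrays, against 2839, 3469 and 3425 on the AML mutant arrays and 2538, 3004 and 3212 on the AML wild-type arrays. All 6 bcCML arrays lay below all 6 AML arrays. The log2 difference was -0.99 ± 0.20 between mutants (SE; adjusted p = 0.00259) and -0.88 ± 0.20 between wild-types (adjusted p = 0.00660). A second probe set was lower in bcCML as well, with log2 differences of -1.57 ± 0.30 and -1.19 ± 0.30. With Msi2 loss Cdkn1b differed by 0.04 ± 0.20 in bcCML and 0.15 ± 0.20 in AML (adjusted p = 0.997 and 0.833).

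Cdkn1c encodes p57, the Cip/Kip inhibitor of an imprinted gene, which is known for holding blood stem cells in quiescence. It lay at the floor of the data in bcCML, between 4.51 and 4.55 units on the mutant and between 4.51 and 4.52 on the wild-type arrays. In AML it measured 186, 19.4 and 26.9 units on the mutant arrays and 6.10, 13.2 and 6.68 on the wild-type arrays. Only the AML mutant arrays rose above the filter level, and array 1 lay far above the other 2. Against wild-type AML, where every array was below 16 units, the mutant level was at least 2.87-fold higher, taking the mean log2 of the mutants over the filter level, and at least 1.43-fold higher without AML mutant array 1. The fitted difference did not pass (unadjusted p = 0.00424, adjusted p = 0.113). The fitted log2 difference was 2.50 ± 0.68 (SE) with all arrays, and without AML mutant array 1 it was 1.49 ± 0.30 and passed (adjusted p = 0.0464), over a range of 0.0464 to 0.413 across the alternatives and left-out arrays. The left-out fits kept the filter of all 12 arrays. Without array 1, Cdkn1c was above the filter level on fewer than the 3 arrays required, so under a filter applied anew it would not have been tested. The same array held the lowest summed level of 9 monocyte and macrophage markers in AML, 11709 units against 34405 and 47066 on the other mutant arrays and between 22378 and 30696 on the wild-type arrays. The part of this in the Cdkn1c level was not tested. Mutant bcCML was at least 2.87-fold lower than mutant AML (adjusted p = 0.00270), or at least 1.43-fold without that array, a difference of -3.34 on the fitted log2 scale that became -2.33 without AML mutant array 1 and -3.97 without array 2. Cdkn1c passed the filter only through the AML mutant arrays, so its differences from the dim groups were in part fixed by the filter.

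**Figure D3:**
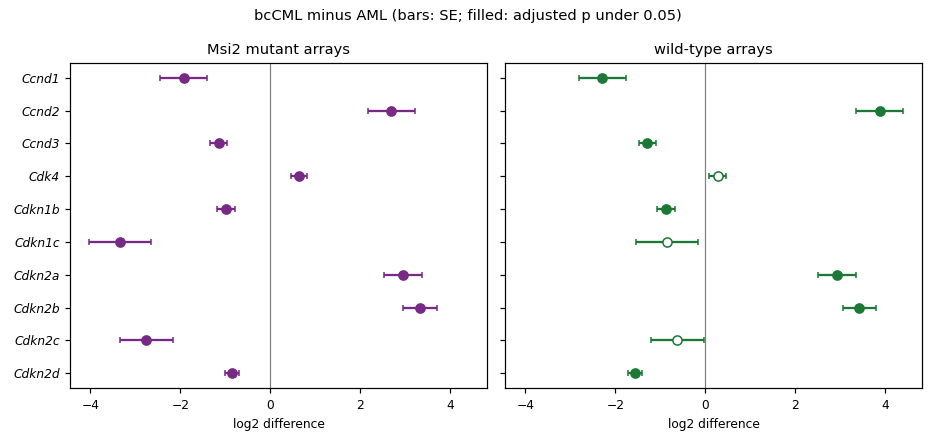
Log2 difference of bcCML minus AML for each of the 10 genes, with SE bars, among Msi2 mutant arrays (left) and wild-type arrays (right); filled points passed an adjusted p of 0.05. Ccnd2, Cdkn2a and Cdkn2b lie between 2.69 and 3.88 on both sides, with the AML values of Cdkn2b below the filter level, as were the bcCML values of Cdkn1c, and Cdk4, Cdkn1c and Cdkn2c are filled among mutants only.

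Among the Ink4 genes Cdkn2a and Cdkn2b were higher in bcCML in both genotypes, Cdkn2d was lower in both, and Cdkn2c was lower among mutants and did not pass among wild-types. Cdkn2a and Cdkn2b lie next to each other among the coding genes of mouse chromosome 4 and carry 3 annotated starts, all on the minus strand. The bases before each start are shown because 1 probe set stands for Cdkn2a and cannot tell its 2 starts apart. They are 120 bases up to the start, 5′ to 3′ on the gene's strand, from RefSeq (GRCm38.p6), with capitals marking a GC box (GGGCGG or its reverse complement).
Cdkn2b, chr4:89311033-89311152: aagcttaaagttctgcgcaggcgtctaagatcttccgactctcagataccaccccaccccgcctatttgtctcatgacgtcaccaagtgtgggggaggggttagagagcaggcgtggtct
Cdkn2a, upstream start, chr4:89294620-89294739: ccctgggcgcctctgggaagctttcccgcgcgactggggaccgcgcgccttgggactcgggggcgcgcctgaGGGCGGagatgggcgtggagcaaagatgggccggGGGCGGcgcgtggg
Cdkn2a, downstream start, chr4:89282193-89282312: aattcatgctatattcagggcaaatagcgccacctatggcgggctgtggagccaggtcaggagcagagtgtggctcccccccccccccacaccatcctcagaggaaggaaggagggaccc

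In these stretches the upstream start of Cdkn2a holds 2 GC boxes and the other starts hold 0. Over windows of 300 bases (250 before to 50 after the start), 7 of the 10 genes were in the RefSeq promoter table, with 10 windows. Ccnd1, Ccnd2 and Cdkn1c had no entry there, so their promoters were not searched. The GC box stood in 9 of the 10 windows on either strand, and in 35.7% of all 32851 windows. CACGTG stood in 2 windows, of Cdk4 and Cdkn2c (7.15% of all), and CCAAT in 5 (37.4% of all). The E2F letters TTTCGCGC and TTTGGCGC (0.323% and 0.514% of all) and the Stat letters TTCNNNGAA (8.30% of all) stood in 0 of the 10 windows. These letters are a description of the sequence and no sites.

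Cdkn2a was several-fold higher in bcCML. It measured 94.2, 189 and 285 units on the bcCML mutant arrays and 159, 161 and 142 on the bcCML wild-type arrays. On the AML mutant arrays it measured 14.6, 28.8 and 26.2 units and on the AML wild-type arrays 16.8, 15.2 and 32.5, with 1 array of each AML group below the filter level. The groups of the 2 leukaemias did not overlap. The log2 difference was 2.95 ± 0.42 between mutants (SE; adjusted p = 0.000303) and 2.93 ± 0.42 between wild-types (adjusted p = 0.000425). On the scale of log2(intensity + 16), which presses low levels together, these became 2.29 and 2.21 and still passed. Cdkn2b, an inhibitor known to rise with TGF-beta signalling, followed the same pattern. It measured 37.0, 84.9 and 126 units on the bcCML mutant arrays and 81.6, 75.9 and 49.1 on the bcCML wild-type arrays, against 7.51, 7.0 and 7.28 on the AML mutant arrays and 5.94, 5.99 and 6.85 on the AML wild-type arrays. Every AML array lay below the filter level, so the ratio is a bound, at least 4.58-fold higher in bcCML among mutants and at least 4.20-fold among wild-types (adjusted p = 5.60e-05 and 6.31e-05). Cdkn2b passed the filter only through the bcCML arrays, so this difference was in part fixed by the filter. Both genes were lowest on bcCML mutant array 1 and highest on bcCML mutant array 3, while the bcCML wild-type arrays lay between those levels. With Msi2 loss Cdkn2a differed by 0.16 ± 0.42 in bcCML and 0.14 ± 0.42 in AML (adjusted p = 0.977 and 0.961), and Cdkn2b by 0.12 ± 0.37 in bcCML (adjusted p = 0.980), and in AML both groups were below the filter level.

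Cdkn2c encodes p18, an Ink4 inhibitor known in mice for restraining renewal of blood stem cells. It measured 1678, 1889 and 751 units on the AML mutant arrays and 390.2, 468 and 434 on the AML wild-type arrays. All 3 mutant arrays lay above the 3 wild-type arrays. The log2 difference was 1.64 ± 0.59 (SE), or 3.11-fold, and did not pass over all genes (unadjusted p = 0.0186, adjusted p = 0.230). The residual spread of Cdkn2c over the 12 arrays, 0.80 on the log2 scale, was larger than that of 91.1% of all tested genes. In bcCML it measured 102, 213 and 354 units on the mutant arrays and 118, 466 and 399 on the wild-type arrays, overlapping groups with a difference of -0.51 ± 0.59 (adjusted p = 0.882). Each mutant array was below the wild-type array of the same number, and with the replicate block the difference still did not pass (adjusted p = 0.708). The interaction, the bcCML difference minus the AML difference, was -2.14 ± 0.83 (unadjusted p = 0.0266, adjusted p = 0.448). From highest to lowest the groups ran AML mutant, AML wild-type, bcCML wild-type and bcCML mutant, and the arrays of the last 3 overlapped between neighbours. The log2 difference of mutant bcCML from mutant AML was -2.76 ± 0.59 (adjusted p = 0.00339), while wild-type bcCML differed from wild-type AML by -0.62 ± 0.59 (adjusted p = 0.444).

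Cdkn2d, which encodes p19Ink4d, was the least variable of the 10 genes within groups, with a spread of 0.16 on the log2 scale. It measured 559, 485 and 643 units on the bcCML mutant arrays and 399, 415 and 371 on the bcCML wild-type arrays, against 1077, 1027 and 925 on the AML mutant arrays and 1022, 1141 and 1364 on the AML wild-type arrays. It was lower in bcCML on every array, with log2 differences of -0.85 ± 0.15 between mutants (SE; adjusted p = 0.00130) and -1.57 ± 0.15 between wild-types (adjusted p = 3.11e-05). Within bcCML the 3 mutant arrays lay above the 3 wild-type arrays, and the log2 difference of 0.50 ± 0.15 did not pass over all genes (unadjusted p = 0.00825, adjusted p = 0.422). In AML the difference was -0.21 ± 0.15 (adjusted p = 0.622) with overlapping arrays. The interaction was 0.71 ± 0.22, with the smallest unadjusted p of the 10 genes for that test (0.00800), and did not pass (adjusted p = 0.330).

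**Figure D4:**
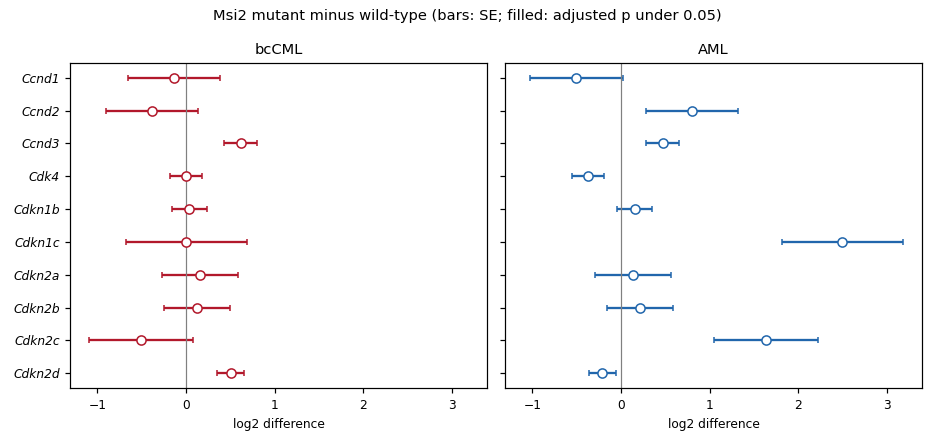
Log2 difference of Msi2 mutant minus wild-type for each of the 10 genes, with SE bars, in bcCML (left) and AML (right); open points did not pass an adjusted p of 0.05. All points are open. In bcCML, Ccnd3 lies at 0.62 and Cdkn2d at 0.50, and in AML Cdkn2c lies at 1.64, while Cdkn1c and Cdkn2b in AML are set against wild-type values below the filter level.

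Without overlap between mutant and wild-type arrays were 3 genes in bcCML (Ccnd3 and Cdkn2d higher, Ccnd2 lower) and 3 in AML (Cdkn1c, Cdkn2b and Cdkn2c higher). Cdkn2b was below the filter level in both AML groups, and over all tested genes 15.9% in bcCML and 16.7% in AML did not overlap. Levels of other genes moved beside these. The summed level of 8 neutrophil granule genes was between 3173 and 14888 units on the bcCML mutant arrays and between 10473 and 34838 on the bcCML wild-type arrays. It was between 149800 and 179202 on the AML mutant arrays and between 77036 and 121903 on the AML wild-type arrays, groups that did not overlap, with all 8 genes above the filter level in both AML groups. The part of these granule genes in the Cdkn2c and Cdkn1c values was not tested.

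Markers of other cells parted the leukaemias too. The summed level of 9 monocyte and macrophage genes with a probe set, of 10 listed, was between 590 and 1102 units on bcCML mutant arrays and 735 and 1097 on bcCML wild-type arrays, against between 11709 and 47066 on AML mutant and 22378 and 30696 on AML wild-type arrays. On all 6 bcCML arrays 3 of these 9 were below the filter level, namely Cd14, Irf8 and Csf1r, the receptor that defines the lineage, which was at no more than 5.14 units. Fcgr1 ran the other way between wild-types, at 16.3 to 54.2 units on bcCML arrays and no more than 9.04 on AML arrays. The summed level of 6 erythroid genes with a probe set, of 8 listed, was between 4965 and 12105 units on bcCML mutant arrays and 3951 and 13316 on bcCML wild-type arrays, against 33.6 to 36.9 and 35.5 to 44.8 on AML mutant and wild-type arrays. In AML all 6 were below the filter level, with Gata1 at most at 9.44 units. Of 6 mast cell and basophil genes 5 had a probe set, and their summed level was between 16288 and 19687 units on bcCML mutant arrays and 18738 and 22479 on bcCML wild-type arrays, against 923 to 3287 and 979 to 5606 on AML mutant and wild-type arrays. Gata2, which stem and progenitor cells also express, carried most of that sum in bcCML. It averaged 15148 ± 441 units in mutant bcCML and 533 ± 347 in mutant AML, and 15928 ± 819 in wild-type bcCML and 2596 ± 2237 in wild-type AML (SD, n = 3 each). On the AML mutant arrays Mcpt8 was above Gata2, with 2036, 714 and 582 units against 881, 187 and 530. The same held on AML wild-type array 2, with 492 units against 434. Of the 5 genes limma called 3 higher in bcCML in each genotype, beside 23.2% of all tested genes among mutants and 17.7% among wild-types. Cma1, at most at 4.6 units in AML, passed the filter only through the bcCML arrays, so its difference was in part fixed by the filter. Mcpt8 had an estimate of -1.61 among mutants and 1.17 among wild-types (adjusted p = 0.312 and 0.491). The summed level of 5 B cell genes was at most 271 units in bcCML and at least 569.6 in AML, and Cd79b alone carried the difference, with 89.2 ± 101 units in mutant bcCML and 573 ± 139 in mutant AML, and 30.5 ± 16.1 in wild-type bcCML and 889 ± 193 in wild-type AML. Pax5, which defines B cells, was at the floor on every array. Of the 3 B cell genes tested 1, Cd79b, was called lower in bcCML in each genotype, beside 21.9% of all tested genes among mutants and 19.3% among wild-types. Of the T and NK genes only 1 of 6 passed the filter, Nkg7, at 7615 to 10650 units in bcCML and 1482 to 8026 in AML. Between the leukaemias limma called Nkg7 higher in bcCML among wild-types (log2 difference 1.55, adjusted p = 0.00740), beside 17.7% of all tested genes. It did not pass among mutants (0.46, adjusted p = 0.332). Gzma, which failed the filter, reached 969 units on bcCML mutant array 2 and 96.9 on bcCML wild-type array 2. The part of these cell types in the D cyclin and Ink4 differences was not tested. The summed level of 14 genes of proliferating cells overlapped between the groups. It was between 53788 and 62038 units on bcCML mutant, 47910 and 59629 on bcCML wild-type, 47995 and 58829 on AML mutant, and 50671 and 67021 on AML wild-type arrays, and limma called 0 of the 14 in each of the 6 comparisons. At an unadjusted p under 0.05 there was 1 of the 14 in each comparison between the leukaemias and 0 in the others.

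Of 27 other genes of entry into DNA synthesis, 4 were higher and 2 lower in mutant bcCML, where 23.2% and 21.9% of all tested genes lay, and 4 were higher and 4 lower in wild-type bcCML, where 17.7% and 19.3% lay. These shares do not stand above those of all genes. The median log2 difference was 0.07 among mutants and 0.14 among wild-types, and over all tested genes 0.03 and 0.00. E2f5, a member of the E2F family that acts with the pocket proteins, averaged 24.8 ± 2.59 units in mutant bcCML and 5.09 ± 0.52 in mutant AML (SD, n = 3 each), at least 1.55-fold higher, and 25.9 ± 1.51 in wild-type bcCML and 6.50 ± 1.57 in wild-type AML, at least 1.62-fold higher (adjusted p = 6.17e-06 and 1.98e-05). E2f5 passed the filter only through the bcCML arrays, so this difference was in part fixed by the filter. E2f2, an activating E2F, was lower, with 122 ± 47.8 units in mutant bcCML and 527 ± 248 in mutant AML, and 110.4 ± 59.4 in wild-type bcCML and 732 ± 313 in wild-type AML (adjusted p = 0.00666 and 0.00173). Cdk7 and Ccnh, the kinase and cyclin of the complex that activates Cdk4, were higher in bcCML in both genotypes, with log2 differences of 0.51 and 0.57 among mutants (adjusted p = 0.0108 and 0.00406) and 0.58 and 0.63 among wild-types (adjusted p = 0.00697 and 0.00310). E2f4, an E2F that represses with the pocket proteins, was higher by 0.72 ± 0.19 among mutants (SE; adjusted p = 0.0104) and by 0.58 ± 0.19 among wild-types (adjusted p = 0.0342). With Msi2 loss limma called 0 of the 27 in bcCML, in AML, in the mean of both and in the interaction, where 0, 2, 1 and 2 had an unadjusted p under 0.05. The 2 in AML were E2f1, the founding E2F gene, at -0.73 ± 0.20 and Ccne1, the cyclin that acts after the D cyclins, at -0.62 ± 0.20 (adjusted p = 0.119 and 0.185), named after their values were seen.

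Of 14 genes chosen as regulators of the D cyclins and inhibitors, 13 were tested. Between mutants limma called 4 higher and 2 lower in bcCML, beside 23.2% and 21.9% of all tested genes, and between wild-types 3 higher and 4 lower, beside 17.7% and 19.3%. Msi2 is among those higher in both. Foxo3, a forkhead factor known to raise Cdkn1b, averaged 6086 ± 391 units in mutant bcCML and 2763 ± 629 in mutant AML, and 4944 ± 369 in wild-type bcCML and 3303 ± 364 in wild-type AML (SD, n = 3 each; adjusted p = 0.000374 and 0.0227). Cdkn1b itself was lower in bcCML. Stat5a, a factor downstream of BCR-ABL that is known to act on Ccnd2, was higher in bcCML by 0.60 ± 0.14 among mutants and 0.48 ± 0.14 among wild-types on the log2 scale (SE; adjusted p = 0.00677 and 0.0235). Stat5b of the same list differed by -0.13 ± 0.22 and 0.10 ± 0.22 (adjusted p = 0.667 and 0.753), named after its values were seen. The part of Foxo3, Stat5a and Stat5b in the Cdkn1b and Ccnd2 levels was not tested. Gfi1, a myeloid repressor, averaged 191 ± 178 units in mutant bcCML and 4117 ± 162 in mutant AML, and 524 ± 261 in wild-type bcCML and 2662 ± 895 in wild-type AML (adjusted p = 0.000585 and 0.0418). Cebpa, the myeloid factor that restrains division, averaged 630.3 ± 410.4 units in mutant bcCML and 4186 ± 557 in mutant AML, and 1240 ± 617 in wild-type bcCML and 4314 ± 516 in wild-type AML (adjusted p = 0.00205 and 0.0290). Foxo1 was below the filter level on the wild-type bcCML arrays, at least 1.41-fold lower than in wild-type AML (adjusted p = 0.0213). Between mutants it averaged 19.2 ± 3.84 units in bcCML and 23.1 ± 15.1 in AML, a log2 difference of -0.02 ± 0.45 (adjusted p = 0.978). With Msi2 loss Msi2 alone was called among the 13, in each leukaemia and in the mean of both, and 0 were called in the interaction, where 3 had an unadjusted p under 0.05.

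Division of each gene's variation over the 12 arrays put most of it between the leukaemias for 8 of the 10 genes. The share was 90.7% for Cdkn2a, 87.0% for Cdkn2d, 86.3% for Ccnd2, 83.9% for Cdkn1b, 77.4% for Ccnd3, 75.1% for Ccnd1 and 53.6% for Cdk4, beside a mean of 44.8% over all tested genes. For Cdkn2b it was 94.3%, a value fixed in part by the filter, since all 6 AML arrays were below it. Cdkn2c stood near the mean with 47.4%. The share of the Msi2 genotype, averaged over the leukaemias, was 15.4% for Ccnd3, and that of the interaction was 19.1% for Cdkn2c, beside means of 8.19% and 6.30% over all genes. The shares of Cdkn1c were 44.6% between leukaemias, 15.9% with genotype and 15.8% in the interaction, and they rest on 9 arrays below the filter level and on AML mutant array 1. Within groups, Cdkn1c, Cdkn2c, Ccnd1 and Ccnd2 varied by 0.93, 0.80, 0.71 and 0.70 on the log2 scale, and Ccnd3, Cdk4 and Cdkn2d by 0.22, 0.21 and 0.16, where the median gene varied by 0.31.

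**Figure D5:**
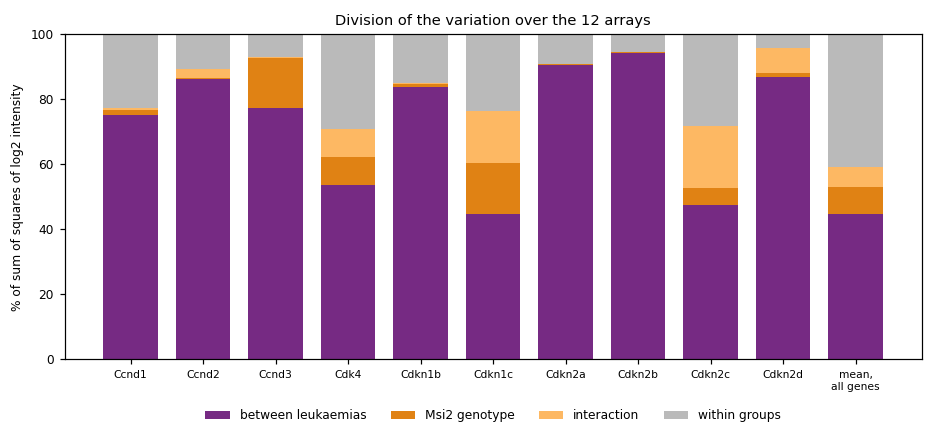
Share of the sum of squares of log2 intensity over the 12 arrays that lay between leukaemias, with Msi2 genotype, in their interaction and within groups, stacked to 100% for each gene and for the mean over all tested genes. The part between leukaemias is 90.7% in Cdkn2a and 47.4% in Cdkn2c, whose interaction part is 19.1%; the bars of Cdkn2b and Cdkn1c rest in part on values below the filter level.

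For the 3 genes with the smallest p in a single leukaemia, the tested genes most like them were ranked by Pearson's r of log2 intensity over the 12 arrays, after the mean of each leukaemia was subtracted. Cdkn1c was followed most closely by Nat8l (r = 0.994), Slco4c1 (0.980) and 4933407O12Rik (0.963). These values rest on Cdkn1c levels below the filter on 9 of the 12 arrays and on AML mutant array 1, and without that array, an alternative chosen after seeing the data, r was 0.983, 0.913 and 0.818 for the Cdkn1c pairs with Nat8l, Slco4c1 and 4933407O12Rik. Slco4c1, a transporter gene, averaged 414 units in mutant and 55.2 in wild-type AML. Cdkn2d was followed by Fkbp15 (0.929), Rfng (0.885) and Tpgs1 (0.847). Ccnd3 was followed by Phlda3 (0.927), Creb3 (0.921) and Sla2 (0.890). Phlda3, a p53 target gene, averaged 142 units in mutant and 37.6 in wild-type bcCML, and 15.97 in mutant and 6.62 in wild-type AML. Sla2 averaged 14.2 units in mutant and 10.3 in wild-type AML. These AML means were below the filter level of 16 units, so the r values of both genes rest in part on dim arrays. Each was the highest over all other tested genes, the arrays share their groups, and r is a description only.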

How the data were processed

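Each deposited table column holds linear intensity for 1 array. The submitters' processing notes name GCRMA, and its version and settings are not given in the sources used here. The method subtracts a background modelled on probe sequence, so dim probe sets pile up at a lowest value (4.49 units). Log2 was taken with no pseudocount. Probe sets were named through GEO's platform annotation (34945 with 1 symbol, 932 with several, 9160 unlisted). Those above 16 units on at least 3 of 12 arrays were kept, and the brightest stood for its gene (10817 genes).

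A model with 1 mean per group was fitted to all 12 arrays with limma 3.58.1 (R 4.3.3; 8 residual degrees of freedom, moderated by eBayes), two-sided, with Benjamini-Hochberg adjustment over all genes and a threshold of 0.05. The step was tested on simulated data. The number of arrays limits the precision. The genes, lists, tests and rule for naming genes (all 10 genes, and called genes of the lists, at most 4 with the smallest p) were chosen with earlier results of these data known. Titles call the samples biological replicates. They do not say whether each came from a separate animal, so p-values measure the spread between these samples.

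Same-numbered mutant and wild-type arrays deviated together in bcCML (correlations 0.396, 0.364 and 0.278) and not in AML (-0.055, -0.121 and -0.030). Between the leukaemias, arrays of the same number and genotype gave values from -0.076 to 0.235. Arrays of different numbers were not compared, so these values alone do not show that the bcCML arrays were paired. A fit with the number as a block was an alternative, as were quantile normalisation, log2(intensity + 16), other filters, the mean over probe sets, eBayes with trend, fewer groups and leaving out each array.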

Additional observations from a re-analysis of the deposited data

How the results depend on the processing

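Over 8 alternatives, 451 of 454 values of the 10 genes kept their side of the threshold, and no called value changed sign. The sign of an uncalled value changed in 4 of the 454, and in 25 of 720 with 1 array left out. The 3 that lost a call were Ccnd1 between mutants with the replicate block (adjusted p = 0.0555) and both Ccnd3 differences between leukaemias with the mean over probe sets. The replicate block changed no other call. With 1 array left out, 716 of 720 values kept their side, the exceptions being Cdk4 between mutants (2 arrays, above) and Cdkn1c without AML mutant array 1, which passed in AML and between wild-types (adjusted p = 0.0464 and 0.0308, the second with both groups below the filter level). These fits kept the filter of all 12 arrays, which Cdkn1c would fail without that array. The count of the 10 genes called ran from 0 to 1 in AML, 7 to 8 between wild-types and 9 to 10 between mutants on leaving out 1 array. The upper counts in AML and between wild-types were those with Cdkn1c. The count of the 27 other genes called between wild-types ran from 5 to 9 against 8, with 5 when array 1 of either wild-type group was absent, and the cause was not tested. At the stricter filter Cdkn1c was not tested. The mean of both and the interaction need all 4 groups and have no fit on fewer. Near the floor changes were only partly measured, which touches Cdkn2a and Cdkn2b in AML and Cdkn1c in both leukaemias. In bcCML both Cdkn1c groups were below the filter level, so no Msi2 difference was measured there.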
